A study of Homo sapiens with 61 samples.

Results

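Messenger RNA of 9 genes that govern the loss of axons and the synthesis of the coenzyme NAD was followed: SARM1, NMNAT1, NMNAT2, NMNAT3, NAMPT, NMRK1, NADSYN1, MYCBP2 and FBXO45. They were chosen by name, with no measured value in the rule but with earlier results of these data known. They are 9 of the 58440 genes that both count tables list. All 9 passed the filter on low counts in both experiments. RNA was sequenced from 61 cultures of neurons made by driving the transcription factor NGN2 in WTC11, a widely used human iPSC line (reprogrammed adult cells that can become any tissue).

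In experiment 1 every line carried a doxycycline-inducible NGN2 cassette, and the lines were wild type (WT), a knockout of the kinase DLK (DLK KO), of the kinase LZK (LZK KO), or of both (DLK LZK double KO), with 4 untreated and 4 vincristine cultures each. In experiment 2 every line carried the CRISPR interference machinery, which silences a gene at its promoter, with a scrambled guide (Control gRNA), a guide against ATF2 (ATF2 gRNA) or a guide against JUN (JUN gRNA), with 5 cultures per group and 4 for vincristine in ATF2 gRNA. Vincristine, which destabilises microtubules, was given at 5 nM for 16 hours. The cultures labelled untreated received the vehicle per the series' design text, which gives day 14 of differentiation. The extraction protocol gives a range of days that ends at day 14. Whether a knockout line is 1 clone is not given in the sources used here, so a knockout and the history of its line cannot be told apart. Nothing in the labels says that the replicates of a group came from separate differentiations, so p-values measure the spread between these cultures.

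NAD is consumed by SARM1, an enzyme that cuts NAD and whose activation destroys the axon after injury. NMNAT2, a short-lived enzyme carried down the axon, makes NAD from its precursor NMN and so keeps SARM1 inactive, while NMNAT1 does the same step in the nucleus and NMNAT3 in mitochondria. NAMPT makes NMN from nicotinamide, NMRK1 makes it from nicotinamide riboside, and NADSYN1 carries out the last step from nicotinic acid. MYCBP2 and its partner FBXO45 form a ubiquitin ligase that removes NMNAT2. DLK and LZK are stress kinases that act through JNK on the transcription factors JUN and ATF2, which bind DNA as dimers.

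The promoters of NMNAT2, NAMPT and NADSYN1, which were called for vincristine in both control lines, and that of SARM1, which was not, are shown because the guides targeted factors that bind the letters TGACGTCA and TGANTCA. The sequences are RefSeq windows on GRCh38.p14 from 250 bases before to 50 bases after the first start given for each gene, 5′ to 3′ on the gene's strand. They lie at chr1:183418331-183418630 (minus strand) for NMNAT2, chr7:106284934-106285233 (minus) for NAMPT, chr11:71452953-71453252 (plus) for NADSYN1 and chr17:28371444-28371743 (plus) for SARM1. Capitals mark TGACG, the 5-letter start of TGACGTCA, found on either strand.
NMNAT2: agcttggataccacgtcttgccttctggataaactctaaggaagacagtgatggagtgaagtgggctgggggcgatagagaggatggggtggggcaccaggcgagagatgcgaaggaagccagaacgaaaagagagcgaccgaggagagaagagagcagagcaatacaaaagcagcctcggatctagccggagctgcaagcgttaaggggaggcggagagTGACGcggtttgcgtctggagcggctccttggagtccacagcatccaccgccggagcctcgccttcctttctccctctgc
NAMPT: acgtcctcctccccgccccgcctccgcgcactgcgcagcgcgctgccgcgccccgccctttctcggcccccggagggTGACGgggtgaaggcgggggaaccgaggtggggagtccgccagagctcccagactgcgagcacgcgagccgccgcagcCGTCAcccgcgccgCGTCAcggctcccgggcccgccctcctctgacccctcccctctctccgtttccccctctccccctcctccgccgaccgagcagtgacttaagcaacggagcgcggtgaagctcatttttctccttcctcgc
NADSYN1: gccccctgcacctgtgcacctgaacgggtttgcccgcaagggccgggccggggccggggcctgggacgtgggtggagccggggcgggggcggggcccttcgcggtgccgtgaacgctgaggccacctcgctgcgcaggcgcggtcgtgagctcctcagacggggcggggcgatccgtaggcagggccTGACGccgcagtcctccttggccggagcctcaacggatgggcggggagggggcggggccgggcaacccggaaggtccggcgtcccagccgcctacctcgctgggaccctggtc
SARM1: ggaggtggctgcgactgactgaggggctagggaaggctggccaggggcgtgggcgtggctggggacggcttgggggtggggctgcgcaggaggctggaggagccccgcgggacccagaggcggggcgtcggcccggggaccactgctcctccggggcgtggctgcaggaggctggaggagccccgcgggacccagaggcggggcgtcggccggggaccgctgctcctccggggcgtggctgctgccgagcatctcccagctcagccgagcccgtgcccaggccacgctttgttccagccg

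Of the 9 genes, 8 matched an entry in the RefSeq table, and NMRK1 did not. Neither TGACGTCA, which 1.85% of 35116 promoters of this length hold, nor TGANTCA, which 7.71% hold, was found in these windows on either strand. TGACG, which lies within TGACGTCA and which 24.6% of the promoters hold, was found once in NMNAT2, 30 bases before the start, 3 times in NAMPT, and once each in NADSYN1, MYCBP2 and FBXO45. It was not found in SARM1, NMNAT1 or NMNAT3. These matches describe letters in the windows and not sites of binding.

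Total counts ran per library from 8410729 to 14647819 in experiment 1 and from 38925807 to 88392414 in experiment 2. MAP3K12, the gene of DLK, was at 19.7 to 30.3 CPM (counts scaled to a common library size with TMM factors) in the means of the groups that lack DLK and at 76.1 to 104 CPM in the other groups of experiment 1. MAP3K13, the gene of LZK, was at 29.6 to 36.6 CPM in the groups that lack LZK and at 99.1 to 139 CPM in the others of experiment 1. In experiment 2, where LZK was not targeted, its group means were also low, at 25.9 to 37.5 CPM. ATF2 was at 0.526 and 0.573 CPM in the ATF2 gRNA groups, against 129 to 153 CPM in the other groups of experiment 2, and JUN was at 2.87 and 6.43 CPM in the JUN gRNA groups. JUN was also low in the ATF2 gRNA groups, at 21.0 CPM untreated and 20.5 CPM treated, against 88.5 and 237 CPM in Control gRNA. In experiment 1 ATF2 was at 71.0 CPM untreated and 65.6 CPM treated in DLK KO, against 141 and 136 CPM in WT. It was at 165 and 158 CPM in LZK KO and at 148 and 160 CPM in the double KO. Untreated JUN was at 55.3 CPM in DLK KO, 116 CPM in LZK KO and 39.6 CPM in the double KO, against 140 CPM in WT. The labels call the cells cortical, and the markers checked here are those of neurons in general. Of the 8 neuron markers all were above 1 CPM in every group mean, with summed levels of 6323 to 9403 CPM, while TUBB3 among them was as low as 7.54 CPM. Of the 5 glial markers GFAP and AQP4 stayed under 1 CPM in every group mean, while MBP reached 39.7, SLC1A3 6.16 and OLIG2 2.79 CPM, and the glial sum ran from 10.1 to 46.2 CPM. Of the 4 pluripotent markers POU5F1 and NANOG stayed under 1 CPM, while LIN28A reached 54.99 and DPPA4 19.6 CPM. The summed mesenchymal markers did not pass 3.28 CPM. WT vincristine replicate 4 stood apart: its difference from its group fell by 0.35 (log2) for each 10% of GC content, against -0.15 to 0.18 in the other 60 libraries. The WT changes of all of the 9 genes but NMNAT3, and of the named list genes, are given with and without it. Differences of the knockouts from WT are given both ways for NMNAT2, SARM1, NMNAT1, NAMPT and NADSYN1, and for MYCBP2 in DLK KO. Those of NMRK1, FBXO45 and NMNAT3, and of MYCBP2 in the other knockouts, are not. In bulk cultures, fewer cells of a type and less RNA per cell cannot be told apart.

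In the control lines vincristine moved 4 of the 9 genes each, by edgeR's quasi-likelihood test with an adjusted p under 0.05 over all genes, which is what "called" means here. In WT, NMNAT1, NMNAT2 and NAMPT were higher and NADSYN1 was lower, where 30.2% of all genes were called. In Control gRNA, NMNAT2 and NAMPT were higher and NADSYN1 and NMRK1 were lower, where 35.3% of all genes were called. In DLK KO, LZK KO, the double KO and ATF2 gRNA none of the 9 was called, where 6.53%, 3.88%, 0.0658% and 6.1% of all genes were called. Of the 9, 4 had an unadjusted p under 0.05 in DLK KO, 2 in LZK KO, 0 in the double KO and 1 in ATF2 gRNA. Over all genes, 4232, 2919 and 1096 of 18235 had such a p in DLK KO, LZK KO and the double KO, and 3782 of 20759 in ATF2 gRNA. DESeq2 called 2 of the 9 in DLK KO, 1 in LZK KO, 0 in the double KO and 0 in ATF2 gRNA. The share of all genes that DESeq2 called is not given here. In JUN gRNA, NMNAT2 and NADSYN1 were lower, where 15.9% of all genes were called. Treated and untreated libraries did not overlap for 3 of the 9 in WT, where this held for 25.0% of all genes, for 2 with DLK KO (19.5%), 1 with the double KO (9.94%) and 1 with LZK KO (7.79%). In experiment 2 they did not overlap for 4 with Control gRNA (28.9%), 1 with JUN gRNA (11.8%) and 0 with ATF2 gRNA (7.36%). The 4 of 9 called in each control line stood near these shares, so the counts are no result about the 9 genes as a set.

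**Figure D1:**
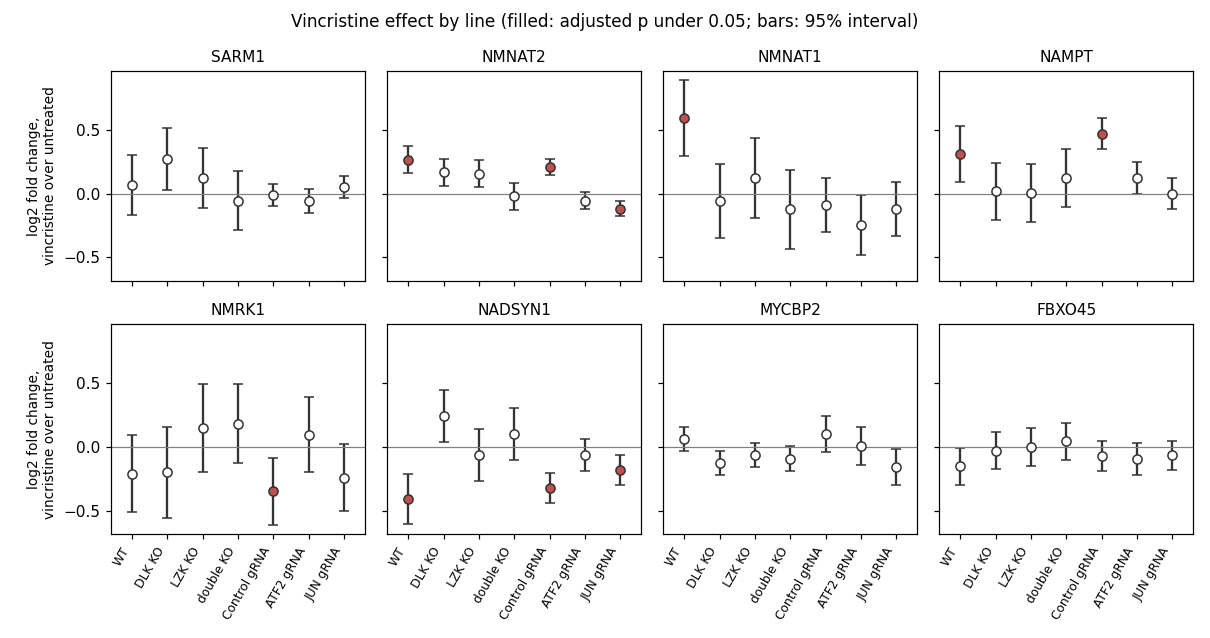
Log2 fold change of vincristine over untreated (y axis) in 7 lines (x axis) for 8 of the 9 genes, with 95% confidence intervals and filled points where the adjusted p was under 0.05. NMNAT2, NAMPT and NADSYN1 are filled in both WT and Control gRNA, and no point is filled in DLK KO, LZK KO, the double KO or ATF2 gRNA; NMNAT3 is left out because its counts were near 0.

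NMNAT2 (chromosome 1, 183248237 to 183418602, minus strand, GENCODE 29 on GRCh38) was the most abundant of the 3 NMNAT messages per kilobase of exon in every group. It rose with vincristine in both control lines and was lower in each of the 5 altered lines before any treatment. In WT it was at 359, 358, 353 and 364 CPM untreated and at 436, 429, 442 and 417 CPM with vincristine. Every treated WT culture was above every untreated one, and the fitted rise was 0.27 (log2, SE 0.0542, adjusted p = 0.000213, n = 4 and 4), or 20.2%, and 0.28 without WT vincristine replicate 4. In Control gRNA it was at 478, 479, 484, 481 and 512 CPM untreated and at 583, 562, 568, 546 and 550 CPM treated. The groups again did not overlap, with a rise of 0.21 (SE 0.0312, adjusted p = 4.13e-07). WT and Control gRNA come from separate tables, and the difference between their responses was not tested.

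The response of NMNAT2 differed by the test from that of the control line in the double KO, ATF2 gRNA and JUN gRNA, and not in DLK KO or LZK KO. In the double KO it was at 328, 324, 318 and 309 CPM untreated and at 317, 313, 321 and 308 CPM treated. The ranges overlapped, and the change of -0.02 (SE 0.0543) differed from that in WT by -0.29 (SE 0.0767, adjusted p = 0.00643), where 19.4% of all genes were called for that difference. The call was lost with no filter on low counts (adjusted p = 0.0722). Without WT vincristine replicate 4 the NMNAT2 differences from WT were -0.30 in the double KO, -0.12 in DLK KO and -0.12 in LZK KO. In DLK KO it was at 295, 300, 253 and 258 CPM untreated and 316, 313, 300 and 312 CPM treated. These groups did not overlap, with the highest untreated culture at 299.58 and the lowest treated one at 300.35 CPM, where this held for 19.5% of all genes. The DLK KO change was 0.17 (SE 0.0544, adjusted p = 0.0558), and its difference from WT, -0.10 (95% interval -0.25 to 0.05), was not called. DESeq2, the filter at a mean of 1 CPM, a fit limited to the compared groups and GC content offsets each called that DLK KO change, at 0.16 to 0.17. In LZK KO the values were 262, 283, 266 and 256 CPM against 283, 276, 319 and 313 CPM, a change of 0.16 (SE 0.0547, adjusted p = 0.109) that DESeq2 alone of the alternatives called. The difference of the LZK KO change from WT was -0.11 (95% interval -0.26 to 0.04, adjusted p = 0.396).

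In ATF2 gRNA NMNAT2 was at 251, 260, 255, 253 and 234 CPM untreated and at 238, 239, 250 and 238 CPM treated, a change of -0.05 (SE 0.0334, adjusted p = 0.425). Its difference from Control gRNA was -0.26 (SE 0.0457, adjusted p = 1.98e-05), where 20.6% of all genes were called. In JUN gRNA the message went the other way, from 368, 373, 350, 375 and 375 CPM to 347, 333, 348, 340 and 330 CPM. These groups did not overlap either, the fall was -0.12 (SE 0.0313, adjusted p = 0.00589), and the difference from Control gRNA was -0.32 (SE 0.0442, adjusted p = 2.24e-07), where 15.8% of all genes were called.

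Before treatment NMNAT2 in experiment 2 was lowest in ATF2 gRNA, where its mean of 250 ± 9.91 CPM (SD, n = 5) stood against 487 ± 14.5 CPM (SD, n = 5) in Control gRNA. The log2 difference was -0.96 (SE 0.0316, adjusted p = 1.6e-28). That of JUN gRNA from the same controls was -0.40 (SE 0.0313, adjusted p = 7.92e-14). The knockouts shared the WT controls, and their differences were -0.38 (SE 0.0544, adjusted p = 7.17e-07) in DLK KO, -0.43 (SE 0.0545, adjusted p = 7.22e-08) in LZK KO and -0.16 (SE 0.0543, adjusted p = 0.0122) in the double KO. In each of these comparisons the groups did not overlap. The double KO call was lost with no filter (adjusted p = 0.148). The 20 tested neighbours of NMNAT2 on its chromosome had a median log2 difference of -0.01 in ATF2 gRNA, with 11 of 20 below 0, and of -0.15 in LZK KO, with 12 of 20 below 0.

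**Figure D2:**
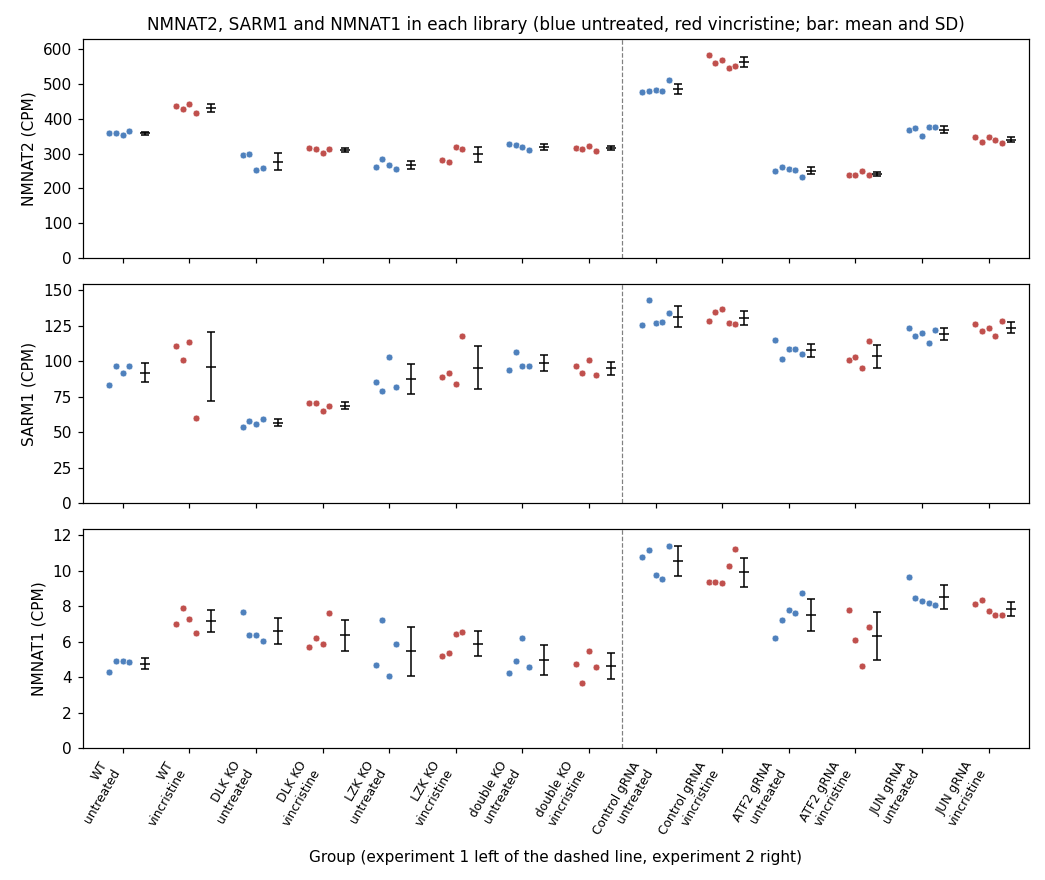
CPM of NMNAT2, SARM1 and NMNAT1 (y axes, linear, from 0) in each of 61 libraries by group (x axis), blue untreated and red vincristine, with the mean and SD as a bar. NMNAT2 stands highest in Control gRNA with vincristine at 546 to 583 CPM and lowest in ATF2 gRNA, and 1 treated WT culture stands at 60.4 CPM of SARM1 below the other 3.

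SARM1 (chromosome 17, 28364356 to 28404049, plus strand) did not pass the test for vincristine in any of the 7 lines. In WT it was at 83.3, 96.5, 91.5 and 97 CPM untreated and at 111, 101, 113 and 60.4 CPM treated. The 3 other treated WT cultures stood above all untreated ones and replicate 4 below them, so the fitted change was 0.07 (SE 0.119, adjusted p = 0.722) with it and 0.23 (adjusted p = 0.0263) without it. With GC content offsets and all 4 cultures it was 0.09 (adjusted p = 0.432). In Control gRNA the message was at 125, 143, 127, 128 and 134 CPM untreated and at 128, 135, 137, 127 and 126 CPM treated, and the change of -0.01 had a 95% interval of -0.09 to 0.08. In DLK KO the treated cultures, at 70.3, 70.7, 65.1 and 68.4 CPM, were all above the untreated ones, at 53.9, 58, 55.8 and 59.5 CPM, where 19.5% of all genes had groups that did not overlap. That change was 0.27 (SE 0.123, adjusted p = 0.175), and a fit limited to the compared groups called it at 0.28. The differences of the 5 altered lines from their controls in the SARM1 response ran from -0.12 to 0.21, and none was called. Without WT vincristine replicate 4 that of DLK KO went from 0.21 to 0.04, that of LZK KO from 0.06 to -0.10 and that of the double KO from -0.12 to -0.28 (adjusted p = 0.0538).

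Untreated SARM1 was lower in DLK KO than in WT. The means were 56.8 ± 2.48 and 92.1 ± 6.38 CPM (SD, n = 4 each), and the log2 difference of -0.70 (SE 0.122, adjusted p = 2.76e-05), or -38.3%, was between groups that did not overlap. The shares called for the untreated lines were 34.5% of all genes in DLK KO, 33.9% in LZK KO, 45.7% in the double KO, 39.9% in ATF2 gRNA and 11.2% in JUN gRNA, against 5, 5, 5, 6 and 3 of the 9 genes. Libraries did not overlap with those of the control line for 36.6%, 30.8%, 47.2%, 29.4% and 9.22% of all genes, against 5, 5, 5, 6 and 2 of the 9. LZK KO at 85.7, 79.4, 103 and 81.7 CPM and the double KO at 94, 107, 96.7 and 97 CPM overlapped WT, with differences of -0.07 (95% interval -0.31 to 0.16) and 0.10 (95% interval -0.13 to 0.33). In ATF2 gRNA it was at 115, 102, 108, 109 and 105 CPM, lower than in Control gRNA by a log2 difference of -0.29 (SE 0.0438, adjusted p = 4.07e-07). In JUN gRNA it was at 123, 118, 120, 113 and 122 CPM, with a difference of -0.14 (SE 0.0436, adjusted p = 0.026). The JUN gRNA call was lost with no filter, with GC content offsets (-0.10, adjusted p = 0.0746), and without Control gRNA untreated replicate 2 or 5 or JUN gRNA untreated replicate 2 or 4 (-0.14 to -0.12). SARM1 shares 39.7% of its exon bases with SLC46A1 on the opposite strand, which was itself at 9.74 to 16.8 CPM in the group means, and the strand setting of the counting is not given in the sources used here. The neighbours of SARM1 in ATF2 gRNA had a median of -0.18, with 15 of 20 below 0, and in DLK KO a median of -0.00.

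Because NMNAT2 opposes SARM1, their ratio was taken within each library on CPM per kilobase of exon, by the gene length deposited with the counts. Lengths of the transcripts expressed here were not determined, so levels of different genes compare only roughly, while 1 ratio can be set side by side across groups. In Control gRNA the ratio was 5.76 ± 0.314 (SD, n = 5) untreated and 6.69 ± 0.244 (SD, n = 5) treated, and the highest untreated library at 5.93 was below the lowest treated one at 6.45. JUN gRNA went from 4.81 ± 0.251 to 4.28 ± 0.176, with the treated libraries at 4.00 to 4.47 and the untreated ones at 4.53 to 5.17. ATF2 gRNA stood at 3.62 ± 0.221 untreated and 3.64 ± 0.339 treated, and its highest treated library at 4.06 passed the lowest treated JUN gRNA library at 4.00. In WT the ratio was 6.07 ± 0.429 (SD, n = 4) untreated and 7.38 ± 2.24 (SD, n = 4) treated, but 6.27 ± 0.304 (SD, n = 3) without replicate 4, which alone was at 10.7. DLK KO was at 7.58 ± 0.826 untreated and 7.03 ± 0.127 treated, LZK KO at 4.80 ± 0.628 and 4.92 ± 0.744, and the double KO at 5.05 ± 0.296 and 5.16 ± 0.169. The untreated libraries of DLK KO, at 6.74 to 8.51, were all above the highest untreated WT library at 6.70. No test was run on the ratio.

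**Figure D3:**
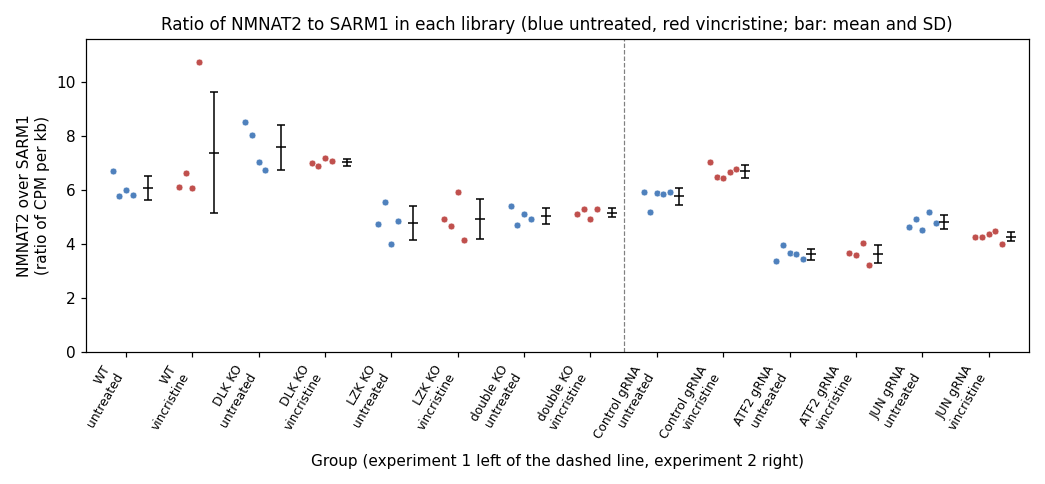
Ratio of NMNAT2 to SARM1 in CPM per kilobase of exon (y axis, linear, from 0) in each library by group (x axis), blue untreated and red vincristine, with the mean and SD as a bar. The treated Control gRNA libraries, at 6.45 to 7.05, stand above the untreated ones, the ATF2 gRNA libraries stand between 3.23 and 4.06, and WT vincristine replicate 4 stands alone at 10.7.

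Ordered by group mean, SARM1 in experiment 1 was lowest in untreated DLK KO (56.8 CPM) and treated DLK KO (68.6 CPM), each apart from its neighbour in the order. The other 6 groups, from 87.5 CPM in untreated LZK KO to 98.6 CPM in the untreated double KO, overlapped their neighbours. In experiment 2 the order ran from treated ATF2 gRNA (103 CPM) to untreated Control gRNA (131 CPM), and all neighbours overlapped. For NMNAT2 in experiment 1 the 6 knockout groups from 267 to 320 CPM overlapped their neighbours, and untreated WT (358 CPM) and treated WT (431 CPM) each stood apart. In experiment 2 treated and untreated ATF2 gRNA overlapped at 241 and 250 CPM, and treated JUN gRNA (340 CPM), untreated JUN gRNA (368 CPM), untreated Control gRNA (487 CPM) and treated Control gRNA (562 CPM) each stood apart from the group below. The genes whose group means followed SARM1 most closely, among 12337 compared over 8 groups of experiment 1 and 6 of experiment 2, were SLC4A3 (Pearson r of 0.988 and 0.973), SMPD4 (0.972 and 0.974) and TPPP (0.950 and 0.965). For NMNAT2 they were CCDC149 (0.955 and 0.947), PLTP (0.959 and 0.946) and PSAP (0.946 and 0.991). The points share libraries and depth, and these values describe the pattern only.

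NMNAT1 (chromosome 1, 9943428 to 9985501, plus strand) was far less abundant than NMNAT2, with 41 to 88 counts per library in experiment 1. It rose with vincristine in WT, from 4.3, 4.94, 4.92 and 4.87 CPM to 6.99, 7.91, 7.3 and 6.47 CPM. The groups did not overlap, and the rise of 0.59 (SE 0.152, adjusted p = 0.00261) was the largest of the 9 in that line, at 0.63 without WT vincristine replicate 4. The change in DLK KO differed from that in WT by -0.65 (SE 0.212, adjusted p = 0.0278), and the change in the double KO by -0.71 (SE 0.22, adjusted p = 0.0185). In LZK KO the difference of -0.47 was not called (SE 0.222, adjusted p = 0.176). Without WT vincristine replicate 4 these NMNAT1 differences were -0.70, -0.76 and -0.505. The DLK KO difference lost its call with no filter and when WT vincristine replicate 2, WT untreated replicate 1, DLK KO vincristine replicate 1 or 3, or DLK KO untreated replicate 1 was left out (-0.62 to -0.57). The double KO difference lost it without the double KO's untreated replicate 3 (-0.59) or vincristine replicate 2 (-0.61). In Control gRNA the change was -0.09 (95% interval -0.30 to 0.12), with untreated cultures at 9.52 to 11.4 CPM and treated ones at 9.3 to 11.2 CPM.

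Untreated NMNAT1 was higher in DLK KO (7.65, 6.38, 6.36 and 6.02 CPM) than in WT, by 0.47 (SE 0.154, adjusted p = 0.0152), with no overlap. Without DLK KO untreated replicate 1 the value was 0.39 and the call was lost. In ATF2 gRNA it was lower than in Control gRNA, at 6.22, 7.2, 7.78, 7.64 and 8.72 CPM against 10.8, 11.1, 9.74, 9.52 and 11.4 CPM. That difference was -0.48 (SE 0.11, adjusted p = 0.000322), beside a median of -0.32 over its 20 neighbours, 16 of which were below 0. In JUN gRNA the difference of -0.30 was not called (SE 0.109, adjusted p = 0.0649), and DESeq2, the filter at a mean of 1 CPM, the fit limited to the compared groups and the fit without JUN gRNA untreated replicate 1 (-0.35) each called it.

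NMNAT3 (chromosome 3, 139560180 to 139678017, minus strand) was close to the floor. In experiment 1 a library held 1 to 22 counts of it, and in experiment 2 from 0 to 17, with 13 of 29 libraries at 0, where a count of 0 allows up to 0.0437 to 0.0794 CPM (3 counts, counting error only). In untreated LZK KO it had 2, 1, 2 and 3 counts against 10, 13, 10 and 15 in WT. The summed counts of 8 and 48 give a ratio of 0.208 (95% interval 0.0851 to 0.444, exact binomial, counting error only), and the fitted log2 difference was -2.22 (SE 0.457, adjusted p = 0.000188). In the other untreated lines and for vincristine in every line it was not called.

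NAMPT (chromosome 7, 106248285 to 106286326, minus strand), which starts the salvage of nicotinamide, rose with vincristine in both control lines. In Control gRNA it was at 56.3, 49.7, 55.8, 47.2 and 54.3 CPM untreated and at 80.1, 71.1, 72.3, 70.1 and 71.7 CPM treated. All treated cultures stood above all untreated ones, and the rise was 0.47 (SE 0.0606, adjusted p = 1.22e-08), or 38.6%. With GC content offsets it was 0.31 (adjusted p = 6.73e-07), so that setting moved it by more than 1.5 times. In WT it went from 56.8, 53.6, 49.5 and 39.4 CPM to 55, 59.5, 60.7 and 72.4 CPM, with overlap. The WT rise of 0.31 (SE 0.111, adjusted p = 0.0313) was no longer called in a fit limited to the compared groups (adjusted p = 0.106) or when WT vincristine replicate 4 (0.22, adjusted p = 0.128), WT untreated replicate 3 (0.31) or WT untreated replicate 4 (0.22) was left out.

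In JUN gRNA NAMPT was at 58.6, 55.7, 58.6, 65.1 and 55.5 CPM untreated and at 56.3, 60.1, 59, 66.8 and 51.5 CPM treated. The change of 0.00 (95% interval -0.12 to 0.12) differed from that in Control gRNA by -0.47 (SE 0.0855, adjusted p = 5.18e-05), and by -0.28 (adjusted p = 0.0022) with GC content offsets. In ATF2 gRNA it was at 58.5, 67.9, 65.9, 61.8 and 57.3 CPM untreated and at 69.9, 71.4, 62.6 and 67.1 CPM treated. The change of 0.12 (SE 0.0642, adjusted p = 0.317; with GC content offsets 0.18, adjusted p = 0.0258) differed from that in Control gRNA by -0.35 (SE 0.0883, adjusted p = 0.00265), but by -0.13 (adjusted p = 0.2) with GC content offsets. The 3 knockouts showed changes of 0.00 to 0.12, and none of their differences from WT (-0.31 to -0.19, or -0.22 to -0.10 without WT vincristine replicate 4) was called.

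Untreated NAMPT was lower in the double KO than in WT, at 39.4, 34.3, 38.7 and 37.3 CPM, with a difference of -0.41 (SE 0.114, adjusted p = 0.00281). The highest double KO culture and the lowest WT culture both round to 39.4 CPM, and the groups did not overlap. In ATF2 gRNA it was higher than in Control gRNA by 0.24 (SE 0.0608, adjusted p = 0.00107), which was 0.07 (adjusted p = 0.306) with GC content offsets. Those offsets gave calls for the lower NAMPT in untreated DLK KO (-0.26) and LZK KO (-0.32), which were -0.18 and -0.11 and not called without them. The processed pseudogene NAMPTP1, whose sequence is close to that of NAMPT, was at 0.316 to 0.769 CPM in the group means.

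NADSYN1 (chromosome 11, 71453109 to 71524107, plus strand), the amidating enzyme of the nicotinic acid route, fell with vincristine in both control lines. In WT it was at 40.8, 46.5, 45.4 and 42.6 CPM untreated and at 37.3, 33.4, 36.3 and 25.1 CPM treated, with no overlap. The fall was -0.41 (SE 0.1, adjusted p = 0.00185), and -0.30 (adjusted p = 0.00821) without WT vincristine replicate 4, the lowest. In Control gRNA it went from 48.5, 55.7, 48.5, 47.7 and 58.2 CPM to 37.7, 42.9, 41.5, 41.1 and 43.5 CPM, a fall of -0.32 (SE 0.0603, adjusted p = 2.11e-05), again with no overlap. JUN gRNA fell from 51.3, 48.1, 54.9, 47.3 and 49.4 CPM to 47.4, 40, 43.1, 42.8 and 48.6 CPM, by -0.18 (SE 0.06, adjusted p = 0.0327), with overlap. That call was lost in a fit limited to the compared groups and when JUN gRNA vincristine replicate 2, 3 or 4 or untreated replicate 1 or 3 was left out (-0.18 to -0.15).

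The response of NADSYN1 differed from WT in DLK KO and the double KO. In DLK KO it was at 25.1, 26.9, 25.8 and 30.5 CPM untreated and at 32.7, 34.8, 29.1 and 31.5 CPM treated, and the difference from WT was 0.65 (SE 0.144, adjusted p = 0.00131), or 0.54 without WT vincristine replicate 4. In the double KO, at 26.9, 27.4, 24.2 and 21.5 CPM against 25.1, 28, 28.6 and 25.3 CPM, it was 0.51 (SE 0.145, adjusted p = 0.0112), or 0.41 without that library. In LZK KO, where 12.4% of all genes were called for the difference, it was 0.34 (SE 0.144, adjusted p = 0.12), or 0.24 without the same library. None of the 9 genes was called for the LZK KO difference, with 2 of 9 (NMNAT1 and NADSYN1) at an unadjusted p under 0.05 and 0 called by DESeq2. Over all genes, 4688 of 18235 had an unadjusted p under 0.05 for that difference. In ATF2 gRNA the NADSYN1 difference from Control gRNA was 0.26 (SE 0.0884, adjusted p = 0.0276). It lost its call with no filter and without Control gRNA untreated replicate 2 or 5, Control gRNA vincristine replicate 1 or 4, ATF2 gRNA untreated replicate 2 or 3, or ATF2 gRNA vincristine replicate 3, 4 or 5 (0.21 to 0.25). In JUN gRNA it was 0.14 (95% interval -0.02 to 0.31) and not called.

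Untreated NADSYN1 was lower than in WT by -0.70 (SE 0.102, adjusted p = 8.54e-07) in DLK KO and by -0.81 (SE 0.102, adjusted p = 2.34e-08) in the double KO, with no overlap in either. In LZK KO, at 35.4, 40.3, 37.3 and 30.6 CPM, the difference was -0.29 (SE 0.101, adjusted p = 0.0243). That call was lost with GC content offsets (-0.18, adjusted p = 0.079) and without WT untreated replicate 2 or 3 or LZK KO untreated replicate 1 or 4 (-0.28 to -0.22). ATF2 gRNA, at 39.1, 37.4, 38.3, 39.4 and 41.4 CPM, was lower than Control gRNA by -0.40 (SE 0.0606, adjusted p = 3.2e-07), and JUN gRNA differed by -0.04 (95% interval -0.16 to 0.08).

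**Figure D4:**
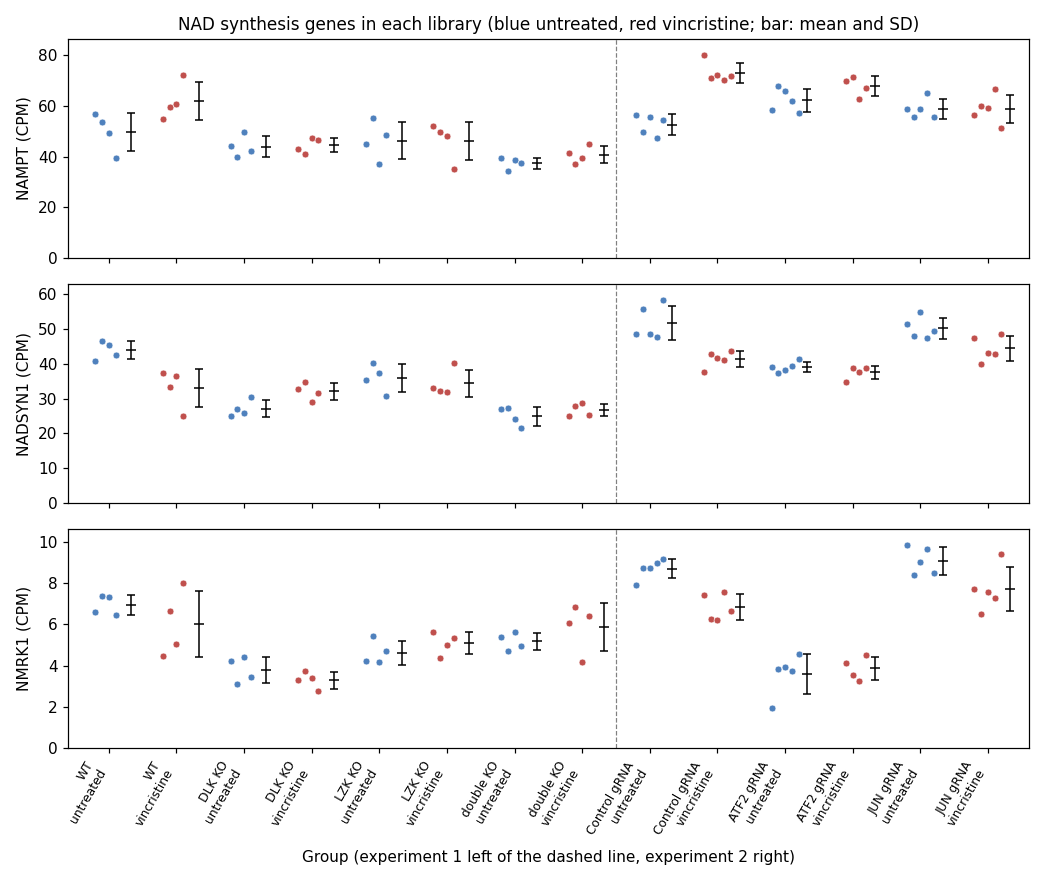
CPM of NAMPT, NADSYN1 and NMRK1 (y axes, linear, from 0) in each of 61 libraries by group (x axis), blue untreated and red vincristine, with the mean and SD as a bar. In Control gRNA the treated NAMPT values (70.1 to 80.1 CPM) stand above and the treated NADSYN1 values (37.7 to 43.5 CPM) below all untreated ones.

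NMRK1 (chromosome 9, 75060573 to 75088217, minus strand), the kinase that uses nicotinamide riboside, was at 29 to 104 counts per library in experiment 1. With vincristine in Control gRNA it went from 7.89, 8.73, 8.73, 8.98 and 9.13 CPM to 7.44, 6.26, 6.21, 7.54 and 6.66 CPM. The groups did not overlap, and the fall was -0.35 (SE 0.133, adjusted p = 0.0364). The call was lost with no filter and without Control gRNA untreated replicate 2, 3, 4 or 5 or Control gRNA vincristine replicate 2, 3 or 5 (-0.35 to -0.30). In WT the change of -0.21 (95% interval -0.51 to 0.09) was not called, with treated cultures at 4.46, 6.65, 5.04 and 7.98 CPM on both sides of the untreated range of 6.46 to 7.36 CPM. Without replicate 4, the highest of them, the change was -0.37 (adjusted p = 0.0743). In ATF2 gRNA the difference from Control gRNA of 0.44 (SE 0.201, adjusted p = 0.118) was 0.56 and called with GC content offsets.

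Untreated NMRK1 was lower in ATF2 gRNA than in Control gRNA, at 1.97, 3.83, 3.92, 3.75 and 4.58 CPM. The difference of -1.26 (SE 0.138, adjusted p = 1.56e-10), or -58.4%, was the largest of the 9 genes there other than that of NMNAT3, which had few counts. In DLK KO it was at 4.21, 3.09, 4.42 and 3.44 CPM and lower than WT by -0.86 (SE 0.164, adjusted p = 6.07e-05), and in LZK KO by -0.59 (SE 0.163, adjusted p = 0.0042). The double KO difference of -0.43 (SE 0.155, adjusted p = 0.0236) was not called by DESeq2 (adjusted p = 0.0511), with no filter, or without WT untreated replicate 2 or 3 or the double KO's untreated replicate 2 or 4 (-0.41 to -0.40). JUN gRNA differed from Control gRNA by 0.06 (95% interval -0.20 to 0.32).

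MYCBP2 and FBXO45, the ligase that removes NMNAT2, were not called for vincristine in any of the 7 lines. MYCBP2 (chromosome 13, 77044655 to 77327050, minus strand) was at 639 to 682 CPM in untreated WT and 646 to 751 CPM in treated WT, a change of 0.06 (95% interval -0.03 to 0.16), or 0.07 without WT vincristine replicate 4. In JUN gRNA the MYCBP2 change with vincristine was -0.16 (SE 0.0723, adjusted p = 0.162), which the fit limited to the compared groups called (adjusted p = 0.0411). Untreated, it was higher in the double KO, at 769, 797, 799 and 775 CPM, than in WT by 0.25 (SE 0.0485, adjusted p = 5.37e-05). In LZK KO, at 739, 737, 751 and 759 CPM, it was higher by 0.18 (SE 0.0486, adjusted p = 0.00424), which was not called with no filter or with GC content offsets (0.12, adjusted p = 0.102). In JUN gRNA, at 431, 470, 414, 477 and 451 CPM against 389, 330, 433, 351 and 369 CPM in Control gRNA, it was higher by 0.26 (SE 0.0724, adjusted p = 0.0187), with overlap. That call was lost without Control gRNA untreated replicate 2 or 4 or JUN gRNA untreated replicate 2 or 4 (0.21 to 0.24). The difference of the DLK KO response from WT was -0.19 (SE 0.0687, adjusted p = 0.0503), and it was called by DESeq2, with the filter at a mean of 1 CPM, and when WT vincristine replicate 2 (-0.22) or 4 (-0.21), DLK KO untreated replicate 3 (-0.24) or WT untreated replicate 4 (-0.20) was left out. The DLK KO change itself, -0.13 (SE 0.0486, adjusted p = 0.113), was called by DESeq2 and without DLK KO untreated replicate 3 (-0.18). That of JUN gRNA from Control gRNA, -0.26 (SE 0.102, adjusted p = 0.0926), was called under 3 alternative settings and without Control gRNA untreated replicate 3 (-0.33) or JUN gRNA vincristine replicate 2 (-0.32). Untreated ATF2 gRNA stood at 0.15 above Control gRNA (SE 0.0724, adjusted p = 0.1), which was called by DESeq2, with the filter at a mean of 1 CPM, and without Control gRNA untreated replicate 3 (0.21) or ATF2 gRNA untreated replicate 1 (0.23). FBXO45 (chromosome 3, 196568611 to 196589059, plus strand), the substrate-binding subunit, had group means of 39.6 to 51.2 CPM in experiment 1 and 47 to 51.1 CPM in experiment 2. It was called in none of the 17 comparisons, with an unadjusted p under 0.05 in 1 of them, the untreated double KO (0.17, SE 0.0744, adjusted p = 0.0565), which was called in the fit limited to the compared groups, with the filter at a mean of 1 CPM and without WT untreated replicate 1 (0.22). DESeq2 called FBXO45 in none. Its vincristine change in WT, -0.15 (SE 0.0755, adjusted p = 0.127), was called when WT vincristine replicate 2 (-0.22) or WT untreated replicate 4 (-0.21) was left out and was -0.11 without WT vincristine replicate 4, and that in Control gRNA, -0.07, was -0.13 and called with GC content offsets.

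**Figure D5:**
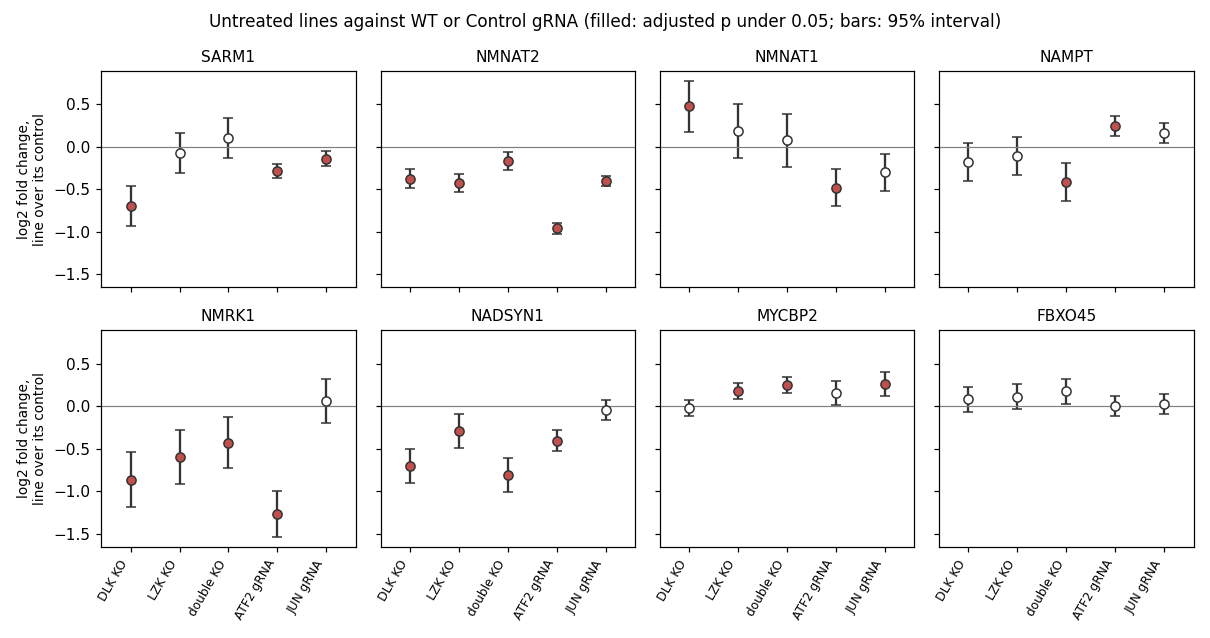
Log2 fold change of each untreated line over its control (WT for the knockouts, Control gRNA for the other 2 lines) on the y axis, with 95% confidence intervals, for 8 of the 9 genes, with filled points where the adjusted p was under 0.05. NMNAT2 is below 0 in each line, down to -0.96 in ATF2 gRNA, while FBXO45 is not filled in any; the 3 knockouts share the WT libraries and the 2 guide lines share the Control gRNA libraries.

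On CPM per kilobase of exon, MYCBP2 (37.4 to 49.2 in the group means) and NMNAT2 (37.3 to 60.1) were the most abundant of the 9 in experiment 1. SARM1 (5.1 to 8.85), FBXO45 (6.62 to 8.57) and NAMPT (4.13 to 6.84) followed, then NADSYN1 (1.54 to 2.69), NMRK1 (0.856 to 1.79) and NMNAT1 (1 to 1.56), with NMNAT3 (0.0171 to 0.132) last. In experiment 2 NMNAT2 was at 33.7 to 78.4 and MYCBP2 at 23.5 to 28.1 per kilobase. This order rests on the deposited gene lengths and not on the lengths of the transcripts expressed, so it is a rough one.

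Genes of 3 related lists were counted in the same fits. The list of NAD users holds mostly enzymes that cut NAD, and also NNMT, which does not. Of this list 4 were higher and 1 was lower with vincristine among 13 tested in WT (median 0.16, against -0.00 over all genes, of which 30.2% were called). In Control gRNA 5 were higher and 1 lower among 15 tested (median 0.04, against 0.03 over all genes, of which 35.3% were called). PARP4 (0.43 in WT and 0.36 in Control gRNA) and the DNA repair enzyme PARP1 (-0.35 and -0.36) were the named genes of this list. Of the axon degeneration partners, 0 were higher and 3 lower among 14 in WT (median -0.11), and 1 was higher and 7 lower among 14 in Control gRNA (median -0.09). TNFRSF21, the death receptor DR6 (-0.43 and -0.36), and the protease CAPN1 (-0.34 and -0.46) were the named genes of the list. The gene that rose in Control gRNA was CAST (0.85), the inhibitor of calpains, which falls outside the naming rule and was chosen after its value was seen. Of the other genes of NAD synthesis and transport, 0 were higher and 1 lower among 7 in WT, and 2 were higher and 2 lower among 9 in Control gRNA, with the NAD kinase NADK lower in both (-0.31 and -0.24). In DLK KO NADK was higher with vincristine (0.37, SE 0.0905, adjusted p = 0.00999), a call lost without DLK KO untreated replicate 1 (0.34) or vincristine replicate 2 (0.31). A fit limited to the compared groups did not call NADK or CAPN1 in WT (adjusted p = 0.0684 and 0.117). Without WT vincristine replicate 4 the WT changes were -0.20 for CAPN1, -0.21 for NADK, -0.27 for PARP1, 0.41 for PARP4 and -0.45 for TNFRSF21. The list counts in WT were not taken without that library. Before treatment 2 of the 14 axon degeneration partners were higher and 8 lower in ATF2 gRNA (median -0.42, against 0.02 over all genes, of which 39.9% were called), among them STMN2 (-0.88), a tubulin-binding protein of axons, and CAPN2 (-0.96), both named after their values were seen.

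Markers of other cells moved with some of these comparisons. The summed level of the 5 progenitor and cycling markers, most of it the intermediate filament gene NES, was 734 to 775 CPM in untreated WT and 923 to 1951 CPM in treated WT, and 1310 to 1400 and 2431 to 2527 CPM in Control gRNA. It was 123 to 130 and 120 to 126 CPM in the double KO. It was also lower in untreated ATF2 gRNA, at 738 to 815 CPM, than in untreated Control gRNA. Of the cycling markers in that sum, MKI67 ran from 4.83 to 44.8 CPM and TOP2A from 1.53 to 24.1 CPM over the group means of experiment 1. In experiment 2 they did not pass 2.49 and 2.93 CPM, so there the sum mostly shows NES and does not measure cycling cells. In experiment 1 NES ran from 84.8 to 1529 CPM over the group means, and a difference in cycling cells between its lines was not tested. The 4 pluripotent markers summed to 2.6 to 3.35 CPM in untreated WT and to 52.9 to 59 CPM in the untreated double KO, most of it LIN28A. Untreated DLK KO was at 10.3 to 14.3 CPM and untreated LZK KO at 13.2 to 18.8 CPM. In experiment 2 this sum was 9.58 to 13.5 CPM in untreated Control gRNA, 33.8 to 40.2 CPM in untreated ATF2 gRNA and 17.3 to 19.1 CPM in untreated JUN gRNA. The summed neuron markers were lower in treated Control gRNA (6527 to 6928 CPM) than untreated (7731 to 8329 CPM), and overlapped in WT (8147 to 8517 CPM untreated and 8209 to 8378 CPM treated). Untreated, this sum was below WT in DLK KO (6323 to 7312 CPM), above WT in the double KO (8826 to 8941 CPM) and within the WT range in LZK KO (8329 to 8435 CPM). It was below Control gRNA in untreated ATF2 gRNA (6728 to 7305 CPM) and overlapped it in untreated JUN gRNA (7866.5 to 8425 CPM). The part of these markers in the results was not tested.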

How the data were processed

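RNA of 61 cultures in 14 groups was sequenced from a stranded polyA library with paired reads, per the labels' protocols. The authors deposited whole-number counts per gene. Per the submitters' processing notes, cutadapt 3.4, STAR, featureCounts from Subread 2.0.1 and GRCh38 were used, while the strand setting is not given in the sources used here, so reads of overlapping antisense genes cannot be told apart. Symbols were matched through GENCODE 29 for 58320 of 58440 identifiers.

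From these counts CPM with TMM factors were computed, and edgeR 4.0.16 in R 4.3.3 fitted a robust quasi-likelihood model with 1 mean per group to all groups of an experiment. 18235 and 20759 genes passed filterByExpr. Benjamini-Hochberg adjustment ran over all of them in each of 17 comparisons, with an adjusted p under 0.05 called, SE taken from the F statistic and 95% intervals from the SE. The pipeline was tested on simulated counts. All 9 genes are named, with 2 genes per related list (the largest WT change among those called in WT and Control gRNA) and the 3 nearest patterns to SARM1 and NMNAT2. The genes and lists were chosen with earlier results of these data known. Alternatives were DESeq2 1.42.0, RLE factors, no filter, a mean CPM of at least 1 as the filter, the replicate block, a fit limited to the compared groups, each of 61 libraries left out, and GC content offsets, which were chosen after seeing the data. None of the 104 pairs of replicates within a group agreed within sampling noise, and pairs across groups were not compared. Figures used matplotlib 3.10.9.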

Additional observations from a re-analysis of the deposited data

Results flagged for a closer look

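In 7 of 126 sets of 4 or 5 libraries 1 library stood far from the others of its group, where chance gives about 1 in 20. NMNAT2 was at 512 CPM in Control gRNA untreated replicate 5, with the others at 478 to 484, and at 249.6 CPM in ATF2 gRNA vincristine replicate 4, with the others at 238 to 239. NMNAT1 was at 4.30 CPM in WT untreated replicate 1, below the others at 4.87 to 4.94, and at 9.66 CPM in JUN gRNA untreated replicate 1, above the others at 8.04 to 8.46. NMNAT3 was at 0.110 CPM in JUN gRNA vincristine replicate 5, with the others at 0 to 0.0124. NAMPT was at 80.1 CPM in Control gRNA vincristine replicate 1, with the others at 70.1 to 72.3, and NADSYN1 at 40.2 CPM in LZK KO vincristine replicate 4, with the others at 31.9 to 33.1.

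The vincristine response differed between lines by the interaction term for 5 gene and line pairs of experiment 1 and 5 of experiment 2. By line these were 2, 0 and 3 of the 9 genes in DLK KO, LZK KO and the double KO, where 19.4%, 12.4% and 19.4% of all genes were called. In ATF2 gRNA and JUN gRNA they were 3 and 2 of the 9, where 20.6% and 15.8% of all genes were called. Relative to WT, on the log2 scale, NMNAT1 differed by -0.65 in DLK KO and -0.71 in the double KO, NADSYN1 by 0.65 and 0.51, and NMNAT2 by -0.29 in the double KO. Relative to Control gRNA, ATF2 gRNA differed by -0.26 for NMNAT2, -0.35 for NAMPT and 0.26 for NADSYN1, and JUN gRNA by -0.32 for NMNAT2 and -0.47 for NAMPT.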

How the results depend on the processing

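Of 153 results on the 9 genes (9 genes in 17 comparisons), 44 were called. In all alternatives 28 of them kept their call, 16 lost it in at least 1, and 0 changed direction. Of the 109 not called, 18 were called in at least 1 alternative and 29 changed sign. DESeq2 gave no adjusted p for 6 results. Calls lost, the named list genes included, numbered 9 with no filter, 6 in fits limited to the compared groups, 5 with GC content offsets, 1 each with DESeq2, RLE factors and the replicate block, and 0 with the filter at a mean of 1 CPM. Replicate numbers did not pair the libraries: same-numbered libraries of a line correlated in their deviations at -0.176 to 0.110, with 1 of 30 pairs over 0.1. With the replicate block 44 of the 153 results were called, with 0 lost and 0 gained. WT vincristine replicate 4, depth (41 counts of NMNAT1 in the lowest library of experiment 1) and the counts of NMNAT3 limit what can be detected. Why values moved was not tested.

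The number of the 9 genes called moved as follows, and not every move is listed. For vincristine in DLK KO it was 0, but 1 with the filter at a mean of 1 CPM, 1 with GC content offsets, 2 with DESeq2, 3 in a fit limited to the compared groups and 0 to 1 when leaving out each replicate (1 without DLK KO untreated replicate 3). It was 1 with DESeq2 in LZK KO and 1 with GC content offsets in ATF2 gRNA, both otherwise 0. Vincristine in JUN gRNA gave 1 to 2 when leaving out each replicate (1 without JUN gRNA vincristine replicate 2, 3 or 4 or untreated replicate 1 or 3). The difference of DLK KO from WT gave 1 with no filter and 1 to 3 when leaving out each replicate (1 without DLK KO vincristine replicate 1 or 3, DLK KO untreated replicate 1 or WT untreated replicate 1). Untreated double KO gave 3 with no filter. Untreated JUN gRNA gave 1 to 4 when leaving out each replicate (1 without Control gRNA untreated replicate 2 or JUN gRNA untreated replicate 2 or 4). There SARM1 also lost its call with no filter, and NMNAT1 gained one with DESeq2. The counts of the control lines moved too. For vincristine in WT, NAMPT lost its call in a fit limited to the compared groups, and FBXO45 gained one without WT vincristine replicate 2. In Control gRNA, NMRK1 lost its call with no filter, and FBXO45 gained one with GC content offsets. Of the list counts, DESeq2 gave 1 in place of 0 for other NAD synthesis genes and 1 in place of 0 for NAD users with vincristine in LZK KO, and in DLK KO 2 in place of 0 NAD users and 2 in place of 1 axon degeneration partners. For partners in the difference of the double KO from WT it gave 3 in place of 1. Other NAD synthesis genes in untreated LZK KO came to 2 in place of 1 with DESeq2 and with RLE factors. RLE factors gave 1 in place of 3 for NAD users in the difference of LZK KO from WT and 1 in place of 3 for partners with vincristine in ATF2 gRNA.

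Values that changed sign under another setting, none of them called, were these. The value farthest from 0 was that of NMNAT3, which had few counts. With GC content offsets, the log2 value was -0.00885 for NMNAT3 in vincristine in WT, 0.0484 for FBXO45 in vincristine in DLK KO, 0.0342 for FBXO45 in vincristine in LZK KO, 0.0138 for SARM1 in vincristine in Control gRNA, -0.00205 for SARM1 in the difference of LZK KO from WT, 0.074 for FBXO45 in the difference of ATF2 gRNA from Control gRNA, 0.0251 for SARM1 in untreated LZK KO, -0.0306 for FBXO45 in untreated ATF2 gRNA, 0.00315 for NADSYN1 in untreated JUN gRNA, -0.0138 for FBXO45 in untreated JUN gRNA, -0.0134 for CAPN1 in vincristine in LZK KO. With DESeq2, the log2 value was -0.0024 for NMNAT3 in vincristine in WT, 0.00243 for FBXO45 in vincristine in LZK KO. With edgeR with RLE factors, the log2 value was 0.000542 for FBXO45 in vincristine in LZK KO. With a fit limited to the compared groups, the log2 value was 0.00479 for FBXO45 in vincristine in LZK KO, -0.00475 for FBXO45 in the difference of JUN gRNA from Control gRNA. With no filter, the log2 value was 0.0125 for SARM1 in vincristine in Control gRNA, -0.0159 for NAMPT in vincristine in JUN gRNA, -0.0325 for FBXO45 in the difference of JUN gRNA from Control gRNA. With filter at mean 1 CPM, the log2 value was 0.00857 for SARM1 in vincristine in Control gRNA, -0.00992 for FBXO45 in the difference of JUN gRNA from Control gRNA. With replicate block, the log2 value was -0.00624 for MYCBP2 in vincristine in ATF2 gRNA, -0.624 for NMNAT3 in the difference of ATF2 gRNA from Control gRNA, -0.000574 for FBXO45 in untreated ATF2 gRNA.

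When leaving out each replicate, 37 results spanned 0. CAPN1 ran from -0.0284 to 0.127 in vincristine in LZK KO. FBXO45 ran from -0.0555 to 0.048 in vincristine in LZK KO, from -0.0728 to 0.0332 in the difference of ATF2 gRNA from Control gRNA, from -0.0586 to 0.034 in the difference of JUN gRNA from Control gRNA, from -0.0268 to 0.0292 in untreated ATF2 gRNA, from -0.00649 to 0.0494 in untreated JUN gRNA. MYCBP2 ran from -0.0506 to 0.0464 in vincristine in ATF2 gRNA, from -0.0489 to 0.0204 in untreated DLK KO. NADK ran from -0.0867 to 0.0287 in vincristine in LZK KO, from -0.0273 to 0.0638 in vincristine in the double KO, from -0.0275 to 0.00924 in vincristine in ATF2 gRNA. NADSYN1 ran from -0.0806 to 0.0043 in untreated JUN gRNA. NAMPT ran from -0.0397 to 0.0645 in vincristine in DLK KO, from -0.0908 to 0.114 in vincristine in LZK KO, from -0.0494 to 0.0442 in vincristine in JUN gRNA. NMNAT1 ran from -0.167 to 0.0111 in vincristine in DLK KO, from -0.00449 to 0.284 in vincristine in LZK KO, from -0.215 to 0.00411 in vincristine in the double KO, from -0.0802 to 0.0193 in the difference of JUN gRNA from Control gRNA, from -0.0537 to 0.135 in the untreated double KO. NMNAT3 ran from -0.176 to 0.193 in vincristine in WT, from -0.189 to 0.343 in vincristine in the double KO, from -0.0738 to 1.64 in vincristine in Control gRNA, from -0.2 to 0.339 in the difference of the double KO from WT, from -0.262 to 1.45 in the difference of ATF2 gRNA from Control gRNA, from -0.0773 to 0.36 in untreated DLK KO. NMRK1 ran from -0.0479 to 0.197 in vincristine in ATF2 gRNA, from -0.105 to 0.16 in the difference of DLK KO from WT. PARP1 ran from -0.0478 to 0.0535 in vincristine in LZK KO. PARP4 ran from -0.0173 to 0.164 in vincristine in DLK KO, from -0.103 to 0.0201 in vincristine in LZK KO, from -0.066 to 0.0322 in vincristine in the double KO, from -0.00293 to 0.045 in vincristine in JUN gRNA. SARM1 ran from -0.021 to 0.229 in vincristine in WT, from -0.0274 to 0.0186 in vincristine in Control gRNA, from -0.104 to 0.15 in the difference of LZK KO from WT. TNFRSF21 ran from -0.0801 to 0.00315 in vincristine in the double KO.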
